A study of Mus musculus with 6 samples.

Results

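The interleukin 1 (IL-1) family and its receptors are represented here by 9 genes, Il1a, Il1b, Il1rn, Il1r1, Il1r2, Il1rap, Il1rl1, Il33 and Il18, which were taken by symbol from the 24421 rows of the deposited count table. All 9 were found. The samples were three-dimensional muscle constructs grown from C2C12, a mouse myoblast line that fuses into myotubes, cast in type I collagen and differentiated in horse serum. In one group 3 constructs received tumour necrosis factor alpha (TNF-alpha) at 100 ng/mL for 72 h, and in the other 3 constructs received the vehicle, phosphate-buffered saline. Polyadenylated RNA was sequenced from each construct. The labels name this single line as the cells of all 6 constructs and name no other cell type. They number the constructs as biological replicates without saying that separate cell batches were used, so a p-value reflects only how these constructs vary, which may be technical.

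IL-1 alpha and IL-1 beta are ligands of one receptor, Il1r1, which recruits the shared accessory chain Il1rap and signals through MyD88 and IRAK kinases to NF-kB. Il1rn encodes a receptor antagonist and Il1r2 a decoy receptor without a signalling domain. IL-33 acts through Il1rl1 (ST2) with the same accessory chain, and IL-18 through its own receptor pair. In skeletal muscle, IL-1 is known as an inflammatory cytokine that can promote protein breakdown in myotubes, and IL-33 as a signal released by mesenchymal cells that acts on regulatory T cells during repair.

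The libraries held 81713008 to 93533748 counts assigned to genes. Of 15792 genes tested, 8769 (55.5%) were called by edgeR's quasi-likelihood test, with 0.05 as the limit of the p adjusted after Benjamini and Hochberg. The muscle markers Myod1, Myog, Des, Ckm, Acta1, Myh3, Ttn and Tmem8c were detected in all libraries, with a summed level of 10618 to 12404 counts scaled to library size (CPM) with vehicle and 7391 to 8450 CPM with TNF-alpha. Of these 8 genes, 6 fell, 1 rose and 1 did not pass the test. Of all tested genes 27.9% fell and 27.6% rose, shares that also apply to the marker counts below. In bulk RNA, fewer cells of a type and less RNA per cell cannot be told apart. Of 10 leukocyte markers, 5 had enough counts to test, of which 4 rose and 0 fell, and their summed level went from between 5.48 and 5.75 CPM to between 21.2 and 23.3 CPM, most of it Cd68, a lysosomal glycoprotein. The defining leukocyte marker Ptprc (CD45) had 2 to 4 counts in the vehicle libraries and 0 in the TNF-alpha libraries. Tyrobp had 0 in every library and the macrophage marker Adgre1 had at most 2. Beside Cd68, the myeloid marker Csf1r rose from 22, 20 and 24 counts to 110, 144 and 122 (log2 fold change 2.54, edgeR adjusted p = 5.33e-05). Fcer1g (1.81, edgeR adjusted p = 0.0220) and Lyz2 (1.26, edgeR adjusted p = 0.0235) also rose, with at most 42 counts in a library. Itgam was not past the test. Of 5 fibroblast markers 2 rose, 2 fell and Thy1 was too low to test, with a summed level of 2296 to 2719 CPM and then 6031 to 6374 CPM that was mostly Dcn. Of 4 mast cell markers, Kit, Cpa3 and Fcer1a had at most 2 counts in a library, and the tested one, the protease gene Mcpt4, fell from 38, 11 and 16 counts to 2, 4 and 0 counts (log2 fold change -3.36, edgeR adjusted p = 0.00898). Of 6 keratinocyte and epithelial markers 2 fell and 0 rose (summed level 8.79 to 10.6 CPM, then 5.74 to 6.88 CPM), and of 4 endothelial markers 1 fell and 0 rose (2.49 to 3.63 CPM, then 1.32 to 1.59 CPM). The part of the leukocyte marker, Dcn and muscle marker shifts in the results on the IL-1 family was not tested.

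Within the family, the transcripts of both IL-1 ligands rose, Il1a far more than Il1b, as did those of the IL-33 receptor Il1rl1 and, by a small amount, the accessory chain Il1rap. The transcript of Il18 fell. Il33, Il1r1 and the antagonist Il1rn were not past the test, and the decoy receptor Il1r2 was too low to test. Of the 9 members, 8 passed the filter on low counts; 4 rose and 1 fell, against 27.6% of all tested genes that rose and 27.9% that fell. At least 2-fold changes were seen in 3 members that rose and 1 that fell, against 8.47% and 9.46% of all tested genes. The 2 groups did not overlap in 5 of the 8 tested members, 4 above (32.6% of all tested genes) and 1 below (31.9%), against 64.5% of all tested genes on either side. The median log2 fold change was 0.25 over the 8 members and 0.00 over all tested genes.

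**Figure D1:**
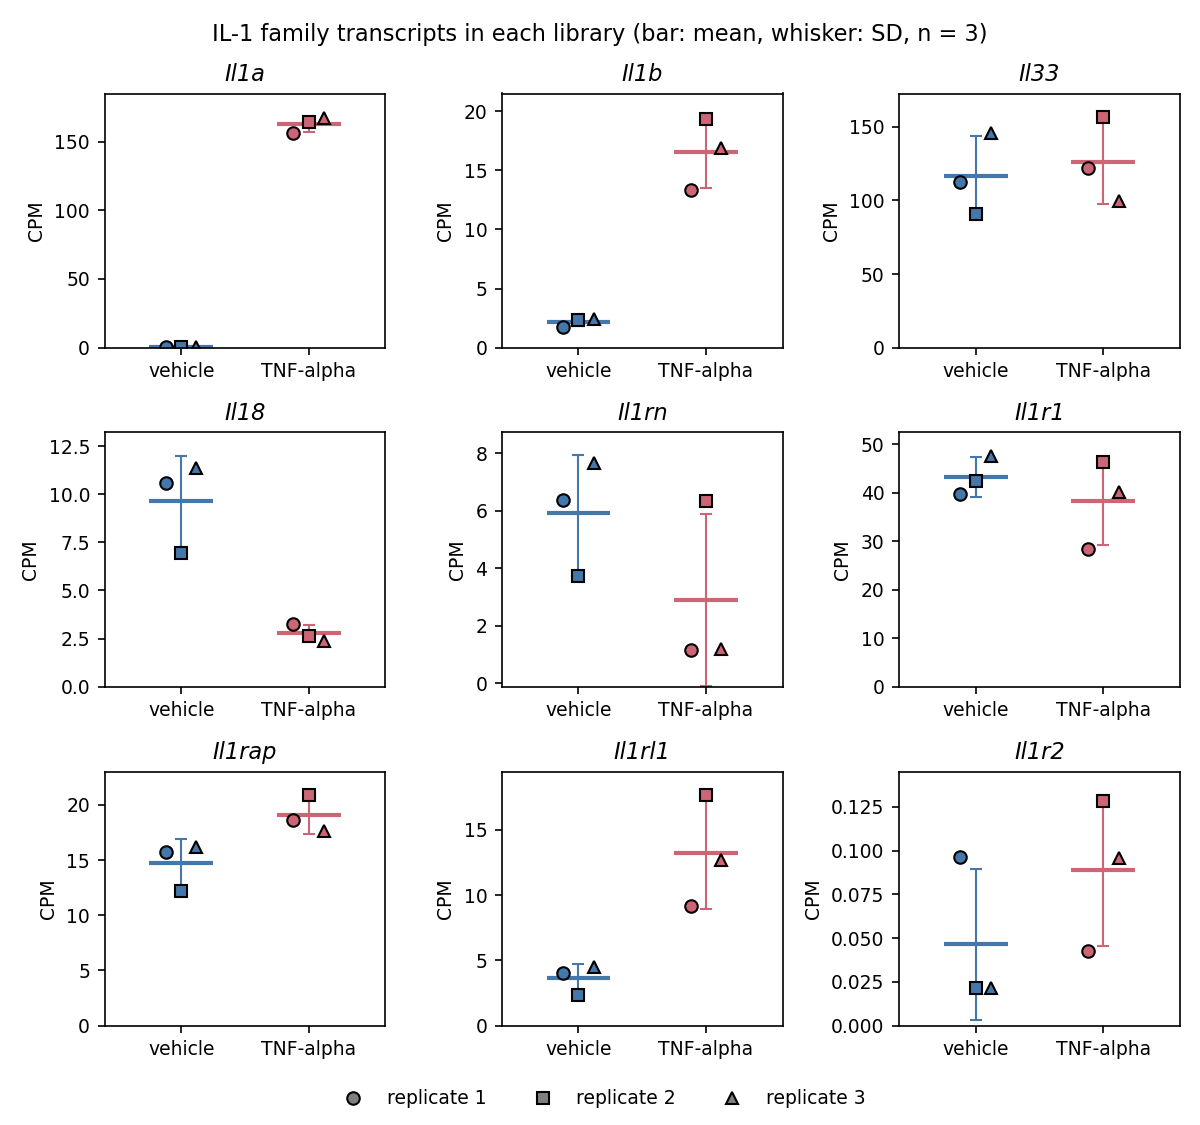
Level of each of the 9 transcripts in CPM (vertical axes, linear, a separate scale per gene) in the 3 vehicle and 3 TNF-alpha libraries; marker shape gives the replicate number, the horizontal bar the mean and the whisker the SD (n = 3). Il1a, Il1b, Il1rap and Il1rl1 were higher in every TNF-alpha library than in any vehicle library and Il18 was lower in every one, whereas in Il1rn TNF-alpha replicate 2 (6.36 CPM) lay among the vehicle libraries.

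Il1a encodes IL-1 alpha, a ligand that is active as its precursor and can be held in the nucleus or at the membrane. Its gene lies on chromosome 2 from 129299610 to 129309972, minus strand (GRCm38). The vehicle libraries had 23.5, 58.5 and 42 counts and the TNF-alpha libraries 14620.5, 14092.5 and 14000 counts. The groups lay far apart, and the TNF-alpha libraries differed little among themselves. The level went from 0.454 ± 0.171 CPM to 163 ± 5.52 CPM (SD, n = 3), a 353-fold rise (log2 fold change 8.46 ± 0.17 SE, edgeR adjusted p = 4.27e-08). The exons of Il1a share 222 bases with those of Gm14023, a transcript annotated on the opposite strand, which went from between 34.55 and 54.25 counts to between 1473.8 and 1586.6 counts. Whether the counting used strand is not given in the sources used here, so reads of the 2 genes in the shared bases cannot be told apart.

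Il1b encodes IL-1 beta, the secreted ligand that is cut from its precursor by caspase 1, and lies next to Il1a on the same strand (chromosome 2, 129364570 to 129371139, minus strand). Its counts were 149, 222 and 227 with vehicle and 1248, 1658 and 1418 with TNF-alpha. Every TNF-alpha library was above every vehicle library. The level rose 7.47-fold, from 2.21 ± 0.367 to 16.5 ± 3.01 CPM (log2 fold change 2.90 ± 0.18, edgeR adjusted p = 4.10e-06). The antisense gene Il1bos, which shares 25 exon bases with Il1b, had at most 14 counts in a library.

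The 250 bases before the annotated starts of these 2 genes are shown because they are neighbours that rose by unequal amounts, beside those of Il18, the ligand gene that fell. Sequences are from RefSeq (GRCm38.p6), 5′ to 3′ on the gene's strand, with matches to the searched motifs in capitals.

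Il1a (chr2:129309973-129310222, minus strand): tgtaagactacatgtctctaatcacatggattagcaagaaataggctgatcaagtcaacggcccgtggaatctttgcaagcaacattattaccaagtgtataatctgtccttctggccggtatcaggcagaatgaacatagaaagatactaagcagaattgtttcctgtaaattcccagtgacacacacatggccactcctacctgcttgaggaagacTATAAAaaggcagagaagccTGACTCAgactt
Il1b (chr2:129371140-129371389, minus strand): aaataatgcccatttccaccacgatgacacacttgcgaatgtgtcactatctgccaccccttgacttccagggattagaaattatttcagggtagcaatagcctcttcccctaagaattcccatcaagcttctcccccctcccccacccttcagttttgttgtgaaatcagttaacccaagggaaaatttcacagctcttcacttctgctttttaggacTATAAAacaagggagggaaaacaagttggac
Il18 (chr9:50554450-50554699, plus strand): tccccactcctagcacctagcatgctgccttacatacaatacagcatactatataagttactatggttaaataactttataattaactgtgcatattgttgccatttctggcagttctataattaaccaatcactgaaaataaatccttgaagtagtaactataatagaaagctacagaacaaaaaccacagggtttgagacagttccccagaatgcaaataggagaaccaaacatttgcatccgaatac

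All 9 members had at least 1 window of 300 bases (250 before and 50 from the start) in the RefSeq table, 14 windows in all, and each was searched for 5 motifs. These were the NF-kB consensus (kappa-B site), the AP-1 site TGANTCA, the C/EBP site TTGCNNAA and the interferon-stimulated response element (GAAA, any 2 bases, GAAA), all on both strands, and the TATA box TATAAA on the gene's strand only. The base before the start is counted as -1. Il1a and Il1b each had a TATA box, at -32 to -27 and -31 to -26, which 8.32% of the 32851 mouse windows held. The TATA box was not particular to them, as both windows of Il33, which was not past the test, held one. In Il33 it lay at -203 to -198 in the first window and at -29 to -24 in the second. Il1a also had an AP-1 match at -12 to -6, found in 7.81% of windows, and Il1b had none. The first window of Il1rn had an AP-1 match at -141 to -135. The C/EBP site, held by 10.8% of all windows, was in the first windows of Il1r1 and Il1rl1 and the second of Il33. The interferon-stimulated response element, held by 3.44%, was among the members only in the window of Il1rap. The NF-kB consensus was found in 8.46% of all windows and, among the members, only in the second window of Il1r1. The window of Il18 held none of the 5 motifs. No motif overlapped another in these windows. A match is a description of the letters and says nothing on binding.

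Il33 encodes IL-33, a nuclear cytokine released from damaged cells, and lies on chromosome 19 (29925114 to 29960718, plus strand). Its counts were 9344, 8515 and 13414 with vehicle and 11391, 13453 and 8348 with TNF-alpha, and the groups overlapped throughout. The level was 116 ± 27.7 CPM with vehicle and 126 ± 28.9 CPM with TNF-alpha (log2 fold change 0.12 ± 0.22, 95% interval -0.43 to 0.66, edgeR adjusted p = 0.688). Without vehicle replicate 2 the log2 fold change was -0.03 and without TNF-alpha replicate 2 it was -0.07, so its sign rests on single libraries.

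Il18 encodes IL-18, a ligand whose precursor is also cut by caspase 1, and lies on chromosome 9 (50554827 to 50581840, plus strand). The vehicle libraries had 882, 648.5 and 1046 counts and the TNF-alpha libraries 306, 227 and 200. All TNF-alpha libraries were below all vehicle libraries. The level fell 3.47-fold, from 9.63 ± 2.37 to 2.77 ± 0.456 CPM (log2 fold change -1.80 ± 0.21, edgeR adjusted p = 1.53e-04). Il18 thus moved opposite to Il1a and Il1b in the same libraries.

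The antagonist Il1rn (chromosome 2, 24336853 to 24351494, plus strand) had 531, 348 and 705 counts with vehicle. With TNF-alpha it had 106 and 99 counts in replicates 1 and 3 and 545 in replicate 2. One TNF-alpha library therefore lay within the vehicle range and the other two below it. The level was 5.92 ± 2.01 and 2.89 ± 3.00 CPM (log2 fold change -1.04 ± 0.75, 95% interval -2.89 to 0.82, edgeR adjusted p = 0.289). Without TNF-alpha replicate 2 the log2 fold change was -2.35 (adjusted p = 0.00119), within a range of -2.35 to -0.65 over all alternatives, so that library decides the call. Il1rn is known to encode secreted and intracellular forms. GENCODE lists 6 transcripts of it, and counts per gene do not separate them.

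**Figure D2:**
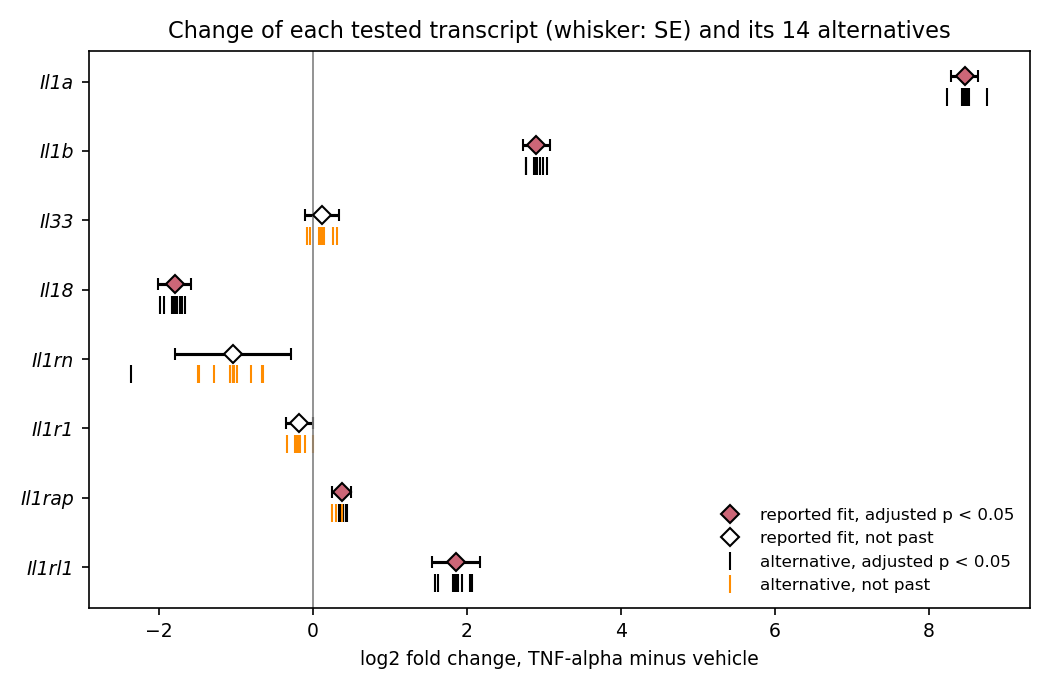
Log2 fold change of TNF-alpha against vehicle (horizontal axis) for the 8 tested members, with diamonds for the reported fit, whiskers for its SE and ticks below for the 14 alternatives, in orange where the adjusted p was 0.05 or more. Il1a, Il1b, Il1rl1 and Il18 passed under every alternative run, Il1rap lost its call in 3, and Il1rn passed only in the alternative at -2.35.

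Among the receptors, the signalling IL-1 receptor Il1r1 (chromosome 1, 40225080 to 40317257, plus strand) had 3306, 3966 and 4385 counts with vehicle and 2657, 3967 and 3372 with TNF-alpha. TNF-alpha replicate 1 was the lowest library and the groups overlapped. The level was 43.2 ± 4.05 and 38.3 ± 9.07 CPM (log2 fold change -0.17 ± 0.17, 95% interval -0.58 to 0.23, edgeR adjusted p = 0.425). It was 0.00 without TNF-alpha replicate 1.

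The decoy receptor Il1r2 (chromosome 1, 40074079 to 40125231, plus strand) had 8, 2 and 2 counts with vehicle and 4, 11 and 8 with TNF-alpha. It did not pass the filter, and the 2 groups overlapped. With no filter on low counts its log2 fold change was 0.93 ± 0.84 (edgeR adjusted p = 0.404), so a change was not detectable at this depth.

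Il1rap, the accessory chain shared by the receptors for IL-1 and IL-33 (chromosome 16, 26581704 to 26730117, plus strand), had 1308, 1139.5 and 1491 counts with vehicle and 1743, 1794.5 and 1477 with TNF-alpha. After scaling to library size the groups did not overlap, although TNF-alpha replicate 3 (17.6 CPM) was close to vehicle replicate 3 (16.2 CPM). The rise was 1.30-fold, from 14.7 ± 2.20 to 19.1 ± 1.69 CPM (log2 fold change 0.38 ± 0.12, edgeR adjusted p = 0.0272). This call was lost when vehicle replicate 2 was left out (adjusted p = 0.0714), when TNF-alpha replicate 2 was left out (0.0956) and with the replicate number as a block (0.0572), and the lowest value over the alternatives was 0.0108. Il1rap shares 552 exon bases with the antisense gene Gm20319, which had 72.5 to 111.5 counts.

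Il1rl1 encodes ST2, the IL-33 receptor, in a membrane form and a soluble form that traps IL-33 (chromosome 1, 40429570 to 40465415, plus strand). Its counts were 336.1, 223.27 and 414.1 with vehicle and 858.22, 1518.1 and 1066.05 with TNF-alpha. All TNF-alpha libraries were above all vehicle libraries, with replicate 2 the highest. The level rose 3.63-fold, from 3.64 ± 1.11 to 13.2 ± 4.28 CPM (log2 fold change 1.86 ± 0.31, edgeR adjusted p = 0.00216). Its counts carried decimals in 6 of 6 libraries although 0 annotated genes overlap it, and the source of the decimals was not tested. The membrane and soluble forms were not separated.

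The receptor genes stand in a row on chromosome 1, from Il1r2 through Il1r1, Il1rl2, Il1rl1 and Il18r1 to Il18rap, over 478 kb. Of the 7 genes of the table in this span, 2 rose, 1 was not past the test and 4 were too low to test. Over all tested genes, 27.6% rose. Those that rose were Il1rl1 and Il18rap, the accessory chain of the IL-18 receptor, with 109, 136 and 145 counts with vehicle and 318, 477 and 282 with TNF-alpha (log2 fold change 1.51 ± 0.22, edgeR adjusted p = 5.32e-04). Il18r1, the ligand-binding chain of that receptor, lies between these 2 genes and had 0.10 to 16.51 counts in the vehicle libraries and 0.88 to 6.27 in the TNF-alpha libraries. Il1rl2, the IL-36 receptor, had 2 counts in 1 library and 0 in the others. Neighbouring receptor genes therefore differed in level. In change, the 95% interval of Il1rl1 (1.12 to 2.60) lay above that of Il1r1 (-0.58 to 0.23), and 4 of the 7 genes could not be compared.

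Levels of different genes can be compared only per length, here as CPM per kb of annotated exon. With vehicle the highest of the 9 was Il33 at 40.3 ± 9.59 CPM per kb, followed by Il18 at 9.34 (6.72 to 11.0 over the libraries), Il1r1 at 6.79 ± 0.637, Il1rap at 1.29 ± 0.194, Il1b at 1.16 ± 0.192 and Il1rn at 1.07 ± 0.364. Below them came Il1rl1 at 0.528 ± 0.161, Il1a at 0.230 ± 0.0867 and Il1r2 at 0.0243 ± 0.0226 CPM per kb. Il18 and Il1r1 overlapped over the vehicle libraries, as did Il1rap with Il1b and Il1b with Il1rn, and the other neighbours in this order were separate. With TNF-alpha Il1a moved from eighth place to the first, at 82.4 ± 2.80 CPM per kb, above Il33 at 43.7 ± 10.0 in every library. Il1b (8.67 ± 1.58) and Il1r1 (6.02 ± 1.43) followed and overlapped. Il18 (2.69 ± 0.442) overlapped with Il1rl1 (1.92 ± 0.621), and Il1rl1 with Il1rap (1.68 ± 0.149), while Il1rn (0.522 ± 0.542) and Il1r2 (0.0466 ± 0.0226) were last. The lengths are those of all annotated exons joined, 1031 bases for Il18 to 11360 for Il1rap, so genes whose long forms are not made here are set too low.

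**Figure D3:**
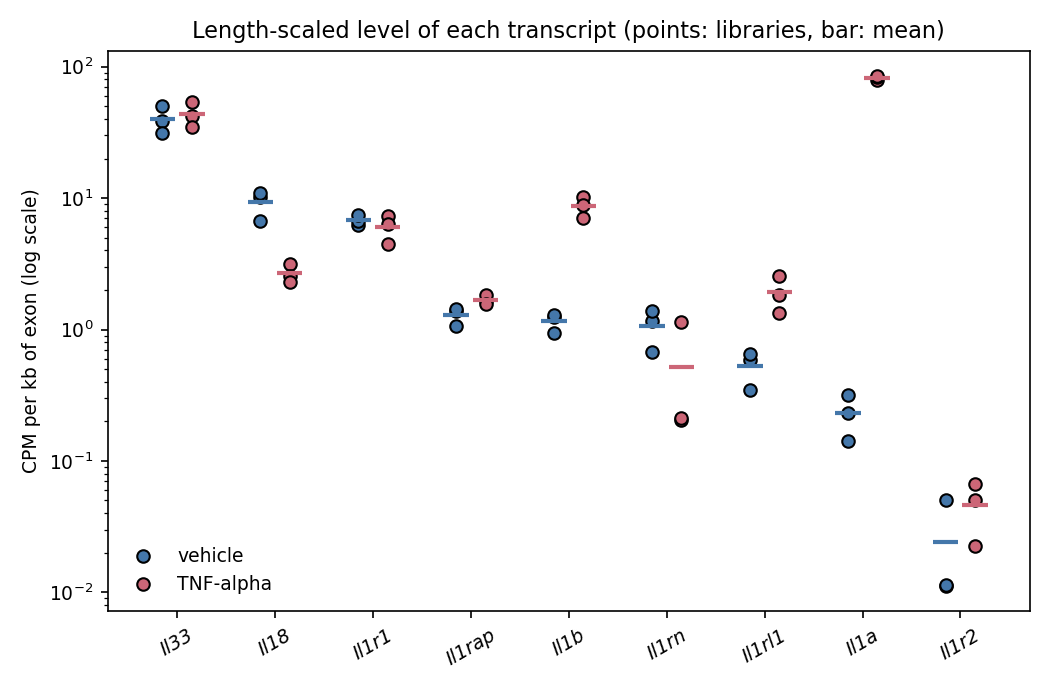
CPM per kb of exon (vertical axis, log scale) of the 9 transcripts, ordered by their vehicle mean; points are the 3 libraries of a group and bars their mean. Il1a went from 0.230 to 82.4 CPM per kb, from below all members but Il1r2 to above all of them, while the mean of Il33 was 40.3 with vehicle and 43.7 with TNF-alpha.

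Ratios within a library do not depend on how libraries are scaled, and 6 were compared between the groups by exact two-sided permutation tests, for which 3 against 3 libraries cannot give a p under 0.1. The ratio of Il1b to Il1a was 6.45, 3.90 and 5.54 in the vehicle libraries and 0.0884, 0.122 and 0.105 in the TNF-alpha libraries. Il1b was thus the more abundant IL-1 ligand transcript with vehicle and Il1a with TNF-alpha (difference of log2 ratios -5.64, exact permutation p = 0.1, 0.12 adjusted over the 6 ratios). The antagonist Il1rn stood at 1.06, 0.430 and 0.905 times the sum of both ligands with vehicle. These values depend on the exon lengths used, 5535 bases for Il1rn, 1974 for Il1a and 1907 for Il1b. Whether the antagonist was above or below the ligands with vehicle is therefore not settled. With TNF-alpha it stood at 0.00239, 0.0123 and 0.00229 times that sum, the middle value being replicate 2. The difference of log2 ratios was -7.52 (exact permutation p = 0.1, adjusted p = 0.12) and -8.31 without TNF-alpha replicate 2. With no division by length it was -7.55 over all libraries. At 0.0123 times the sum, the antagonist was far below the ligands also in replicate 2, where Il1rn itself was not low. Between the groups Il1a went from 0.230 to 82.4 CPM per kb, whereas Il1rn was not past the test.

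The receptor ratios moved less. Il1rl1 stood at 0.0940, 0.0521 and 0.0873 of Il1r1 with vehicle and at 0.298, 0.353 and 0.292 with TNF-alpha (difference of log2 ratios 2.06, exact permutation p = 0.1). Il1rap stood at 0.222, 0.161 and 0.190 of Il1r1 with vehicle and at 0.367, 0.253 and 0.245 with TNF-alpha (0.58, exact permutation p = 0.1). Il33 exceeded its receptor Il1rl1 66.3, 90.9 and 77.3 times with vehicle and 31.7, 21.2 and 18.7 times with TNF-alpha (-1.74, exact permutation p = 0.1). Each of these 3 had an adjusted p of 0.12, and the groups did not overlap in any of them. The decoy Il1r2 was at most 0.00967 of Il1r1 in any library, and its ratio overlapped between groups (exact permutation p = 0.3).

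**Figure D4:**
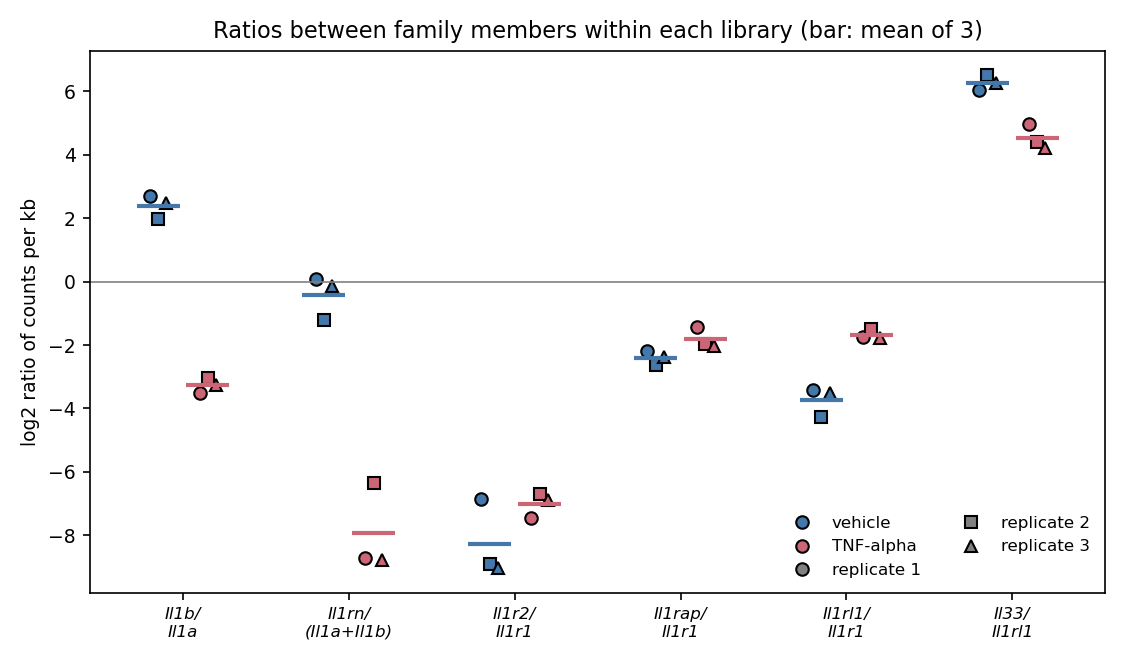
Log2 ratios of counts per kb between members within each library (vertical axis) for 6 pairs; colours give the group, marker shapes the replicate and bars the mean of 3. The group means of Il1b to Il1a were 2.37 with vehicle and -3.26 with TNF-alpha, on opposite sides of 0, and the Il1rn ratio of TNF-alpha replicate 2 (-6.34) stood above the other two TNF-alpha libraries.

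Of the 5 other ligand genes of the family, only Il1f9, the older symbol of the IL-36 gamma gene, had enough counts to test. It had 37, 85 and 61.67 counts with vehicle and 272, 361 and 433.67 with TNF-alpha (log2 fold change 2.59 ± 0.30, edgeR adjusted p = 1.55e-04). Il1f5, Il1f6, Il1f8 and Il1f10 had 0 to 21 counts in a library. Il1f9 lies on chromosome 2 at the start of a 165 kb row of family genes that ends with Il1rn, which was not past the test. Of 7 other receptor and binding protein genes 3 were tested. Sigirr, a receptor that damps IL-1 signalling, rose from 1.12 ± 0.110 to 3.51 ± 0.645 CPM (log2 fold change 1.64 ± 0.19, edgeR adjusted p = 1.24e-04), and Il18rap rose as given above. Il18bp, the secreted IL-18 binding protein, fell from 2.42 ± 0.156 to 1.68 ± 0.0984 CPM (-0.52 ± 0.15, edgeR adjusted p = 0.0170). Leaving out either vehicle replicate 2 or TNF-alpha replicate 3 ended this call (adjusted p = 0.0575 each, lowest over the alternatives 0.0103).

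Genes that carry the signal from the receptor moved both ways. All 16 were tested: 7 were called higher, 4 lower and 5 neither. Their median log2 fold change was 0.03, against 0.00 over all tested genes, of which 27.6% rose and 27.9% fell. Tab2, an adaptor of the TAK1 kinase, rose from 147 ± 2.97 to 219 ± 3.14 CPM (log2 fold change 0.58 ± 0.05, edgeR adjusted p = 3.77e-05), and the ubiquitin ligase gene Peli1 from 19.0 ± 0.989 to 29.5 ± 1.27 CPM (0.63 ± 0.07). Of the related ligase genes, Peli3 rose 2.09-fold (1.06, edgeR adjusted p = 0.00113), the only one of the 16 called at 2-fold or more, and Peli2 fell from 50.3 ± 3.73 to 30.3 ± 0.680 CPM (-0.73 ± 0.07, edgeR adjusted p = 4.03e-05) and Ube2n, a ubiquitin-conjugating enzyme gene, from 160 ± 6.34 to 114 ± 6.11 CPM (-0.49 ± 0.06). The adaptor gene Myd88 rose (0.30 ± 0.09, edgeR adjusted p = 0.0173), whereas the 4 IRAK genes Irak1, Irak2, Irak3 and Irak4 were not past the test, at -0.36 to -0.07.

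Genes of precursor cleavage and release were counted in the same way. The list had 22 genes and 19 could be tested: 5 were called higher, 7 lower and 7 neither (median log2 fold change -0.08), against 27.6% and 27.9% of all tested genes called higher and lower. The inflammasome sensor gene Nlrp3 had 12, 67 and 20 counts with vehicle and 840, 795 and 933 with TNF-alpha (log2 fold change 4.75 ± 0.50, edgeR adjusted p = 2.58e-04). The value was 5.74 when vehicle replicate 2, which had 67 counts, was left out. Gsdmd, the pore protein through which mature IL-1 beta leaves the cell, rose from 35.5 ± 1.44 to 119 ± 32.8 CPM (1.74 ± 0.21, edgeR adjusted p = 5.25e-04). Casp1, the protease that cuts the precursors of IL-1 beta and IL-18, fell from 19.9 ± 2.07 to 9.83 ± 0.532 CPM (-1.02 ± 0.10, edgeR adjusted p = 4.73e-05), and Nek7, a partner of the Nlrp3 protein, fell from 142 ± 1.98 to 91.9 ± 6.48 CPM (-0.63 ± 0.07). Pycard, the adaptor between sensor and caspase, had only 4 to 31 counts in a library (-0.60 ± 0.59, edgeR adjusted p = 0.415). The Nlrp3 and Gsdmd transcripts thus rose while that of Casp1 fell and that of Pycard was near the detection limit. Other genes of these kinds differed. The sensor genes Aim2 (-0.15) and Nlrp1a (0.56) were not past the test, whereas Nlrc4 (1.27) and Mefv (2.45) rose with at most 38 counts in a library. The caspase genes Casp4 (0.03) and Casp8 (-0.04) were not past the test.

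**Figure D5:**
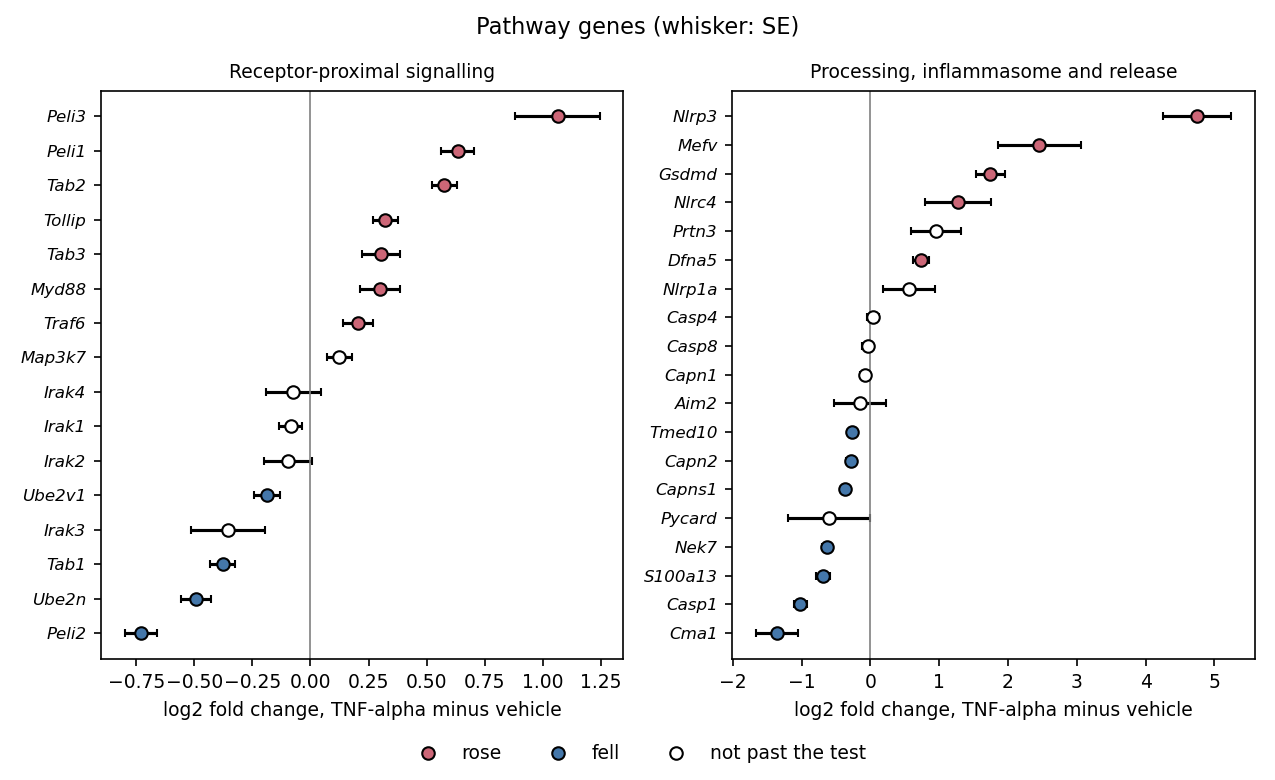
Log2 fold change (horizontal axes, a separate scale for each panel) with SE for the tested genes of receptor-proximal signalling (left) and of processing, inflammasome and release (right), coloured by call. Signalling genes lie between -0.73 and 1.06, whereas Nlrp3 reached 4.75 and Casp1 fell by 1.02.

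The genes whose centred log2 CPM differed least from that of Il1a over the 6 libraries were Clec4e, a myeloid pattern-recognition receptor, Csf2 (GM-CSF) and Sprr2h, a cornified envelope protein, with root mean square differences of 0.472, 0.478 and 0.577. Clec4e went from 34, 113 and 27 counts to 17029.5, 13367 and 15429 counts (log2 fold change 8.08, and 8.96 when vehicle replicate 2 was left out). With vehicle, Csf2 had only 4, 10 and 13 counts and Sprr2h 5, 3 and 6, so the prior count of 2 affects their distances. No gene was within 0.25 of Il1a, whereas 2598 were within 0.25 of Il1r1, the nearest being Plekha4, Ptpn3 and Ank (0.0533, 0.071 and 0.0737). Such counts follow from the size of the group difference, since few genes change as much as Il1a. This likeness is a description over 6 libraries of 2 groups. The closest genes to Il1r1 were, like it, lowest in TNF-alpha replicate 1 within that group. This follows from choosing them by likeness over the same libraries.

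Within groups, single libraries stood high or low for several members at once. TNF-alpha replicate 2 was the highest TNF-alpha library in 7 of the 9 members and the lowest in 0, while it was the highest for 34.6% of all tested genes. Vehicle replicate 3 was the highest vehicle library in 7 of 9 members (36.6% of all tested genes), and vehicle replicate 2 the lowest in 6 (33.2%). TNF-alpha replicate 1, without which the sign of Il1r1 turned, was the lowest TNF-alpha library in 6 of 9 members (38.6%). The part of these library differences in the calls of Il1rap and Il1rn is given by the values without each library above.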

How the data were processed

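Polyadenylated RNA of 6 constructs was sequenced. Groups follow the titles, and columns were assigned through the library names that the descriptions give. The authors deposited estimated counts per gene, of which 20.1% to 21.0% per library carry decimals although the design text calls them integers. The submitters' processing notes name mm10 and GRCm38, TopHat2 2.1.1, Bowtie2 2.3.5.1, featureCounts, Subread 2.0.0 and DESeq2. The sources used here do not give the counting options or whether strand was used. Counts were rounded, filtered with filterByExpr, scaled with TMM and tested with edgeR 4.0.16 (R 4.3.3; glmQLFit with robust estimation, glmQLFTest), with adjustment over all 15792 genes and no covariate. Standard errors come from the F statistic and intervals are 95%. CPM are scaled with TMM, and the log2 CPM used for likeness has a prior count of 2. Ratios add 0.5 to each count. Loci and exon lengths come from GENCODE M21 (GRCm38), promoter windows from RefSeq. The procedure was tested on simulated data.

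Named genes were the 9 members, the 2 smallest p in each direction per pathway list with at least 1 CPM in a group, the genes between Il1r2 and Il18rap, and 3 genes nearest to Il1a and to Il1r1. The rule also took genes between Il1a and Il1rn, but in the mouse these lie far apart with many unrelated genes between, so, after the annotation was seen, the spans Il1a to Il1b and Il1f9 to Il1rn were used instead. Myd88, the IRAK genes, Peli3, Mcpt4, Pycard, the overlapping genes and those in the library comparison were chosen after their values were seen. So were the sensor and caspase genes named beside Nlrp3 and Casp1. The members and lists were chosen with earlier results of these data known. Alternatives were scaling by RLE or upper quartile, leaving out the filter, a filter of 1 CPM in 3 libraries, DESeq2 1.42.0, limma-voom (limma 3.58.1), no robust estimation, a replicate block and leaving out each library. Replicates of a group differed beyond sampling noise (chi-square per degree of freedom 22.0 to 66.9), so none was counted as a duplicate. Intervals cover the spread between libraries. Proteins are not analysed here.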

Additional observations from a re-analysis of the deposited data

How the results depend on the processing

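Over the 14 alternatives, Il1a (log2 fold change 8.23 to 8.75), Il1b (2.77 to 3.04), Il1rl1 (1.59 to 2.07) and Il18 (-1.99 to -1.66) kept direction and call. The number of members called was 5, or 4 with the replicate block and without vehicle replicate 2, and the number of genes called over the table was 7421 to 8916 against 8769. Il1rap lost its call in 3 alternatives, and Il1rn gained one without TNF-alpha replicate 2. With 1 library left out at a time, the log2 fold change of Il33 was -0.073 (without TNF-alpha replicate 2) to 0.31, with -0.034 without vehicle replicate 2. That of Il1r1 was -0.33 to 0.0018 and that of Plekha4, chosen for its likeness to Il1r1, was -0.31 to 0.084. Both were positive only without TNF-alpha replicate 1. None of these was called, and the cause was not tested. Clec4e was 8.96 without vehicle replicate 2 against 8.08. No pairing by replicate number was seen: the correlations of deviations from the group means were 0.0428, -0.0454 and -0.114 for numbers 1 to 3. Low correlations do not show that the constructs were unpaired, and the labels do not say. With the number as a block, 8486 genes were called, Il1rap had a log2 fold change of 0.38 (adjusted p = 0.0572), no other member changed its call, and the sign-flip tests of the ratios cannot give a p under 0.25 with 3 pairs. With 1 library left out at a time, the difference of log2 ratios was -8.31 to -7.10 for Il1rn to both ligands, -5.84 to -5.48 for Il1b to Il1a, 1.79 to 2.22 for Il1rl1 to Il1r1, 0.40 to 0.70 for Il1rap to Il1r1, -1.96 to -1.58 for Il33 to Il1rl1 and 0.86 to 1.95 for Il1r2 to Il1r1. Scaling moved the median of all genes by at most 0.03 on the log2 scale; with upper-quartile scaling 4040 genes rose and 4763 fell, against 4366 and 4403. Calls of the signalling list went from 11 to as few as 8 without TNF-alpha replicate 3 and those of the processing list from 12 to between 10 and 13. These alternatives for the 2 lists and the other named genes were added after seeing the data. Depth limits Il1r2, Il18r1 and Pycard, which had at most 31 counts in any library.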

Other observations

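Il1rn was 1 of 11 tested genes at 1 CPM or more in TNF-alpha replicate 2 and at least 4 times above both other TNF-alpha libraries. The same rule gave 11 genes for vehicle replicate 3 (6 of them rows with identical values), 3 for TNF-alpha replicate 1, 1 for vehicle replicate 1 and 0 for vehicle replicate 2 and TNF-alpha replicate 3. Beside Il1rn (5.38 times the next TNF-alpha library), the genes of TNF-alpha replicate 2 were the neutrophil chemokine gene Cxcl2 (5.56 times), the acute-phase gene Saa1 (8.84 times), the adhesion molecule genes Selp (5.46 times), Nrcam (15.9 times) and Ceacam1 (12.4 times), the protease genes Klk6 (23.7 times), Klk7 (8.99 times) and Tmprss11d (21.6 times), the pericyte-associated gene Rgs5 (79.8 times) and Vmn2r79 (4.90 times). Rgs5 was at 6.67 CPM in that library and at 0.0642 and 0.0836 CPM in the other two, with 0.320 to 0.913 CPM in the vehicle libraries. These genes were chosen by their values, and no test was made.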
